A study of Drosophila melanogaster with 4 samples.

Results

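The genes described here are 33 abundant genes of Drosophila melanogaster, taken as non-coding RNA genes by their CR names and measured in sorted embryonic gonads. They were chosen by their mean normalized count over the 4 libraries: every gene with a name made of CR and 5 digits and a mean count of at least 100 was taken. CR45822 and CR45835 were left out by the same rule. The table of 17103 genes holds 2394 genes with such names. Besides the 33 genes and the pair left out, 969 of them were detected, with mean counts below 100. Because the mean count chose the 33 genes, their abundance is given as a description.

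Gonads of Phf7[DN18] mutant embryos carrying vasGFP were compared with gonads of control embryos carrying vas-GFP, so both genotypes carried the reporter, which marks germ cells, and the labels set them apart by the Phf7 allele. Phf7 is a PHD finger protein that reads histone marks in the male germline. All embryos were of stage 17 and 18 to 22 h old at 25 °C, and 2 biological replicates were collected per genotype. GFP-positive particles from embryos of both sexes were sorted to enrich for intact gonads, some germ cells were released on the way, and the gonads hold somatic cells besides germ cells.

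Long non-coding RNAs are transcribed by RNA polymerase II, and many are capped, spliced and polyadenylated like mRNAs without encoding a protein. Some are primary transcripts that the Drosha complex cuts to release microRNA hairpins. Others lie antisense to coding genes or within their introns. As only transcript ends were sequenced, a count stands for polyadenylated ends and was not divided by gene length, and levels of different genes were not tested against each other.

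The authors' table gives only a mean count per gene, and whole reads per library were recovered from it for the 11208 genes with a mean count up to 1000. Recovered reads numbered 2130832 and 2051338 in the mutant libraries and 1842411 and 1536698 in the control libraries, and held 17.4% of the mean total. The recovered columns could not be tied to the replicate numbers and are called mutant a, mutant b, control a and control b. Phf7 itself had 7.97 and 39.2 normalized counts in the mutant libraries, against 761 and 601 in the control libraries. How far the deletion reaches towards the counted 3′ end is not given in the sources used here. Within each genotype 1 library stood apart. Over the markers of muscle with recovered reads (13 of 14), the summed normalized count was 5109 and 1288 in mutant a and mutant b, against 1075 and 3704 in control a and control b. The 10 neuron markers summed to 6278 and 1274 in the mutant libraries, against 853 and 2999.6 in the control libraries. The 8 midgut markers with recovered reads, of 11 listed, summed to 3182 and 463 in the mutant libraries, against 230 and 2669 in the control libraries, with 1 marker at a mean count of 0. The 8 germ cell markers with recovered reads, of 14 listed, stayed between 4726 and 4896 in the mutant libraries, against 4120 and 4409 in the control libraries, and the 7 somatic gonad markers with recovered reads, of 12, summed to 2732 and 2379, against 3233 and 3509. Hemocyte markers, all 6 with recovered reads, summed to 665 and 426 in the mutant libraries, against 449 and 593 in the control libraries. Fat body markers were at or near 0, with at most 9.8 in any library. The muscle, neuron, midgut and, less steeply, hemocyte and somatic gonad sums were thus higher in mutant a and control b than in the other library of each genotype. The germ cell sums were not.

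None of the 26 genes with recovered reads passed an adjusted p of 0.05 between the genotypes, and neither did any of the 7653 genes tested (0%; limma with Benjamini-Hochberg adjustment, lowest adjusted p 0.0577). Even Phf7, the mutated gene, did not pass, with a log2 fold change of -5.16 (SE 0.73, limma, adjusted p 0.295). Failing this test is thus no sign that a gene was unchanged. At an unadjusted p under 0.05 there were 3 of the 26, CR43132, CR42549 and CR44330, where 5.84% of all genes tested passed. The mutant libraries lay above both control libraries for 5 genes (CR44330, CR43465, CR43650, CR43870 and CR44603), or 19.2%, near the 15.4% of all genes tested. They lay below both for 6 genes (CR43132, CR40469, CR42549, CR43241, CR44953 and CR46135), or 23.1%, near the 17.5% of all genes tested. These counts include CR44603 (means of 124 in mutants and 79.4 in controls) and CR46135 (89.3 and 118). Both reached the mean count of 100 only through the genotype where they were higher, so their place in these counts rests in part on the threshold. An exact permutation test of 2 libraries against 2 cannot give a two-sided p under 0.333. The median log2 fold change of mutant over control was -0.04 over the 26 genes, of which 12 were above 0, and 0.01 over all genes tested. With the muscle, neuron and midgut markers as a covariate, 5 of the 26 genes passed an adjusted p of 0.05, 1 higher in mutants (CR44330) and 4 lower (CR43132, CR40469, CR42549 and CR40621). In that fit 2.85% of all genes tested passed as higher and 4.4% as lower, and it leaves 1 residual degree of freedom. Of the 4595 genes tested with a mean count of at least 100, 165 passed as higher and 260 as lower. The p-values measure the spread between these 4 libraries, and limma draws each gene's variance towards a value estimated from all genes tested. A small p with 1 residual degree of freedom thus rests in part on the spread of other genes. In sorted gonads, fewer cells of a type and less RNA per cell cannot be told apart.

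The 33 genes held 0.258% of all normalized counts, and most of this came from a few of them. The 5 most abundant held 67.5% of their sum and the 7 with a mean count over 1000 held 76.8%, while the median gene had a mean count of 215. CR43264 had the highest mean count, 6536, which was higher than that of 98.5% of all detected genes. The least abundant, CR44603, had a mean count of 102 and was above 52.3% of them. Ensembl release 115 and RefSeq, both on the dm6 assembly used by the authors, annotate 29 of the 33 genes. In RefSeq 24 are lncRNA, 4 are antisense RNA and 1 is another non-coding RNA, and their genes lie on 2L (4), 2R (3), 3L (7), 3R (9), X (5) and 4 (1). The 4 names that were not matched are CR42195, CR40959, CR40621 and CR41550, so only the name marks them as non-coding RNA genes. Such a name does not settle this, as 2 of the 190 annotated CR-numbered genes with a mean count of 10 to under 100 are pseudogenes.

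**Figure D1:**
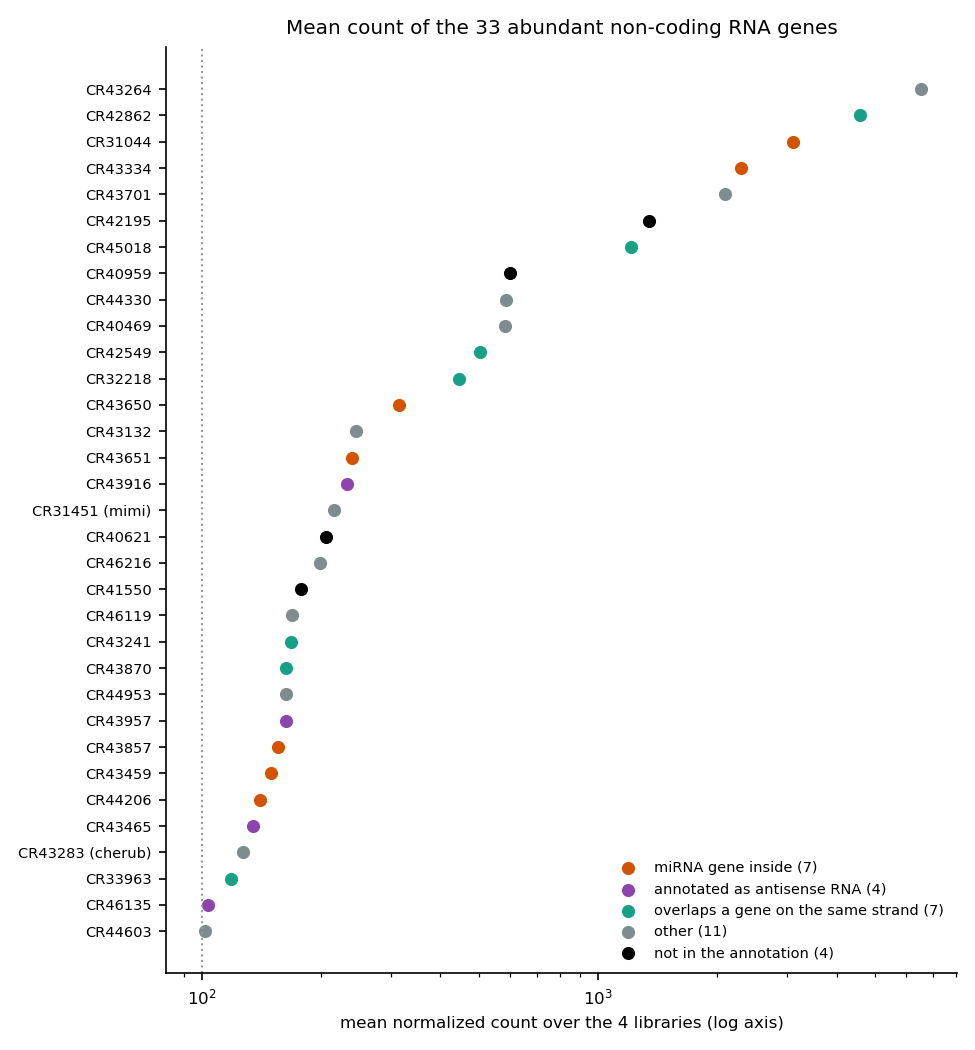
Mean normalized count over the 4 libraries (x axis, log scale) of each of the 33 genes (y axis, in order of abundance), coloured by what the annotation places there. Each point is the authors' mean and has no error bar, the dotted line is the threshold of 100, and the 2 most abundant genes with a miRNA gene inside them reach 3098 and 2301.

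In length the annotated genes ranged from 93 to 18409 bp with a median of 3029 bp, against 941.5 bp for the annotated CR-numbered genes with a mean count of 10 to under 100. The 93 bp gene is CR43701 (3L:1488739-1488831), which the annotation calls a small non-coding RNA, so the name long does not hold for it, and the other 28 genes are longer than 200 bp. Of the 29 genes 15 have a single exon block. Genes that overlap a gene on the opposite strand made up 27.6% of the 29, against 60.2% of the 186 annotated non-coding CR-numbered genes of the lower range, and those with an overlap on the same strand made up 24.1% against 16.7%. A miRNA gene lies inside 7 of the 29 (24.1%), against 4 of 186 (2.2%) in the lower range and 1.6% of those detected below 10. These shares describe the annotation and were not tested.

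Of the 7 genes over a mean count of 1000, 6 have the authors' mean alone. CR43264 is a gene of 318 bp on X (5831898-5832215, minus strand) inside an intron of CG15765, which is transcribed from the other strand. CG15765 had 118 and 24.1 normalized counts in mutant a and mutant b, against 4.06 and 131 in control a and control b. CR42862 (3L:224106-230964, plus strand) had a mean count of 4574 and shares 246 bp of exon with CG33229 on the same strand. CG33229 had 643 and 382 normalized counts in the mutant libraries, against 630.0 and 795 in the control libraries. CR43701 had a mean count of 2087 and lies in an intron of stet, a rhomboid protease gene of the germline, on the opposite strand. stet had 278 and 297 normalized counts in the mutant libraries, against 194 and 287 in the control libraries, so the genotypes overlapped. The strand setting of the counting is not given in the sources used here, so reads of genes that overlap on either strand may be shared or lost. CR42195 had a mean count of 1347, which 2 sets of whole reads can give, and no value per library is reported for it.

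In 7 genes a miRNA gene lies inside the non-coding gene. CR31044 (3R:29214562-29219667, plus strand) is the primary transcript of mir-279 and mir-996, and miR-279 is known to restrict the number of CO2-sensing neurons. CR43334 (3L:628435-643900, plus strand) is the primary transcript of bantam, a microRNA that promotes growth and blocks cell death and that helps keep germline stem cells in the adult ovary. Their mean counts of 3098 and 2301 were too high for recovery. The other 5 carry mir-8 (CR43650), mir-14 (CR43651), mir-275 (CR43857), mir-277 and mir-34 (CR43459), and mir-184 (CR44206). The annotation names 6 of the 7 as primary transcripts of these miRNAs, all but CR43857. The 9 hairpin genes themselves were listed with a mean count of 0, but reads that overlap both a hairpin and its host may be lost in counting. As a count stands for polyadenylated ends, these libraries measured polyadenylated ends of the host and not the mature miRNA. Ends of whole and of cut host transcripts were not told apart. From the hairpin to the annotated 3′ end of its host the distance was 40 bp for mir-275, 50 bp for mir-184 and 116 bp for mir-14, against 7976 bp for mir-8.

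None of the 5 hosts with recovered reads passed the test between the genotypes. CR43650, the host of mir-8, a member of the miR-200 family that acts in growth control, had 328 and 345 normalized counts in the mutant libraries, against 301 and 284 in the control libraries. It was the only one of these hosts whose genotypes did not overlap, and its log2 fold change was 0.20 (SE 0.22, adjusted p 0.975). CR43651, the host of mir-14, which acts on cell death and fat metabolism, had 372 and 125 in mutant a and mutant b, against 178 and 284 in control a and control b. CR43857 had 221 and 110.5 in the mutant libraries, against 94.5 and 197 in the control libraries. Both genes were high in mutant a and control b, and the genotypes overlapped. CR43459, whose miRNAs miR-277 and miR-34 are known for roles in ageing, had 166 and 120.3 in the mutant libraries, against 119 and 193 in the control libraries. CR44206 holds mir-184, a miRNA needed for egg production by the female germline. It had 196 and 58.8 in mutant a and mutant b, against 45.7 and 261 in control a and control b, a spread within each genotype far wider than the difference of their means of 127 and 153. Its log2 fold change was -0.03 (SE 0.97, adjusted p 0.995). Of the 5 hosts, 4 had their higher mutant value in mutant a and their higher control value in control b.

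**Figure D2:**
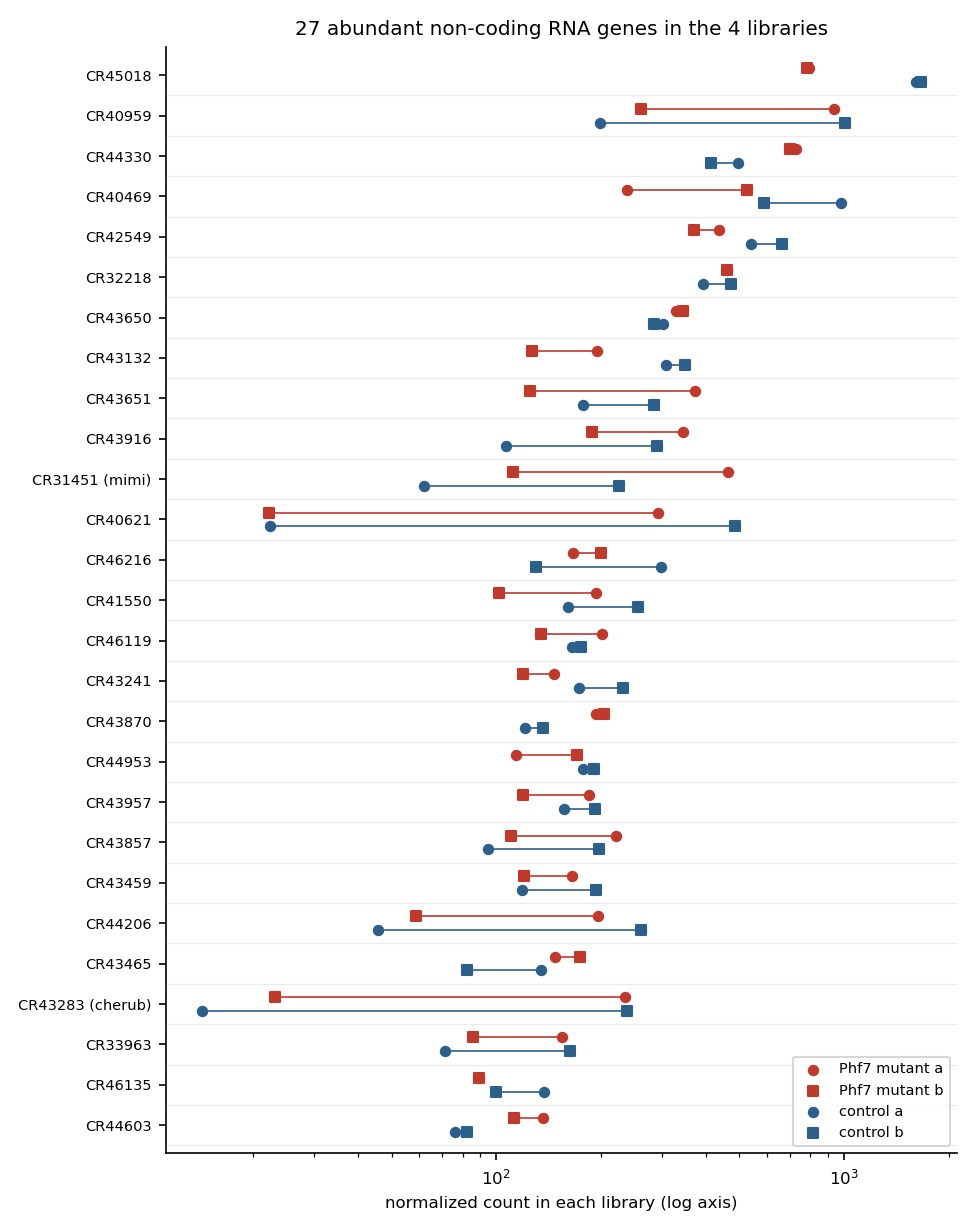
Normalized count (x axis, log scale) in each library for the 27 genes with values per library, in order of mean count. In each row the mutant libraries (red) are drawn above the control libraries (blue), circles are library a and squares library b, and lines join libraries of 1 genotype. CR45018 shows tight pairs far apart, whereas CR40621 and cherub show wide pairs on top of each other.

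CR45018 was lower in both mutant libraries than in both control libraries, with close replicates. It lies on X (13304005-13308004, plus strand) within IP3K2, an inositol trisphosphate kinase gene of the same strand, and shares 1433 bp of exon with it. Its mean count of 1215 was above the limit of the recovery, but only 1 set of whole reads gives that mean, as for 284 of the 444 genes between 1000 and 1400, with 898 and 877 reads in the mutant libraries and 1590 and 1371 reads in the control libraries. The normalized counts were 795 and 781 in the mutant libraries, against 1616 and 1666 in the control libraries. CR45018 was thus at 0.481 times the control level in mutants, with libraries of each genotype within 1.03-fold of each other. In a fit over 7937 genes that added the genes above 1000 with a single set of reads, an alternative chosen after the data were seen, its log2 fold change was -1.06 (SE 0.16, limma, adjusted p 0.3). The adjusted p was 0.477 with limma-voom and 3.13e-06 with the marker covariate, and between 0.727 and 1 without any 1 library. IP3K2 did not show the same pattern, with 352 and 510.5 normalized counts in the mutant libraries, against 813 and 394 in the control libraries. The genotypes overlapped for IP3K2, and its log2 fold change was -0.42 (SE 0.40, adjusted p 0.975).

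Values per library were also recovered for 4 other genes that overlap a coding gene on the same strand. CR42549 (3R:9548104-9551806, minus strand), within mura, a RING-finger ubiquitin ligase gene, had 436 and 371 normalized counts in the mutant libraries, against 541 and 663 in the control libraries. The genotypes did not overlap, and the log2 fold change was -0.57 (SE 0.22, adjusted p 0.837). CR43241 (2L:22131221-22132435, plus strand) shares 424 bp of exon with CG42748. It had 146 and 119 normalized counts in the mutant libraries, against 173 and 232 in the control libraries, and CG42748 had 433 and 379, against 502 and 453. Both were lower in every mutant library than in every control library, with log2 fold changes of -0.60 (SE 0.32) for CR43241 and -0.24 (SE 0.21) for CG42748, at adjusted p of 0.97 and 0.975. CR32218 (3L:19895216-19896391, minus strand) lies within introns of Mi-2, a chromatin remodeller, and of Su(Tpl), an elongation factor. Its values were nearly level, with 461 and 459.7 in the mutant libraries, against 393 and 473 in the control libraries. CR33963 (X:12659462-12660632, plus strand), within Tis11, a gene for a zinc-finger protein of mRNA decay, had 154 and 85.5 in mutant a and mutant b, against 71.1 and 163 in control a and control b.

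CR43870 (3L:17245882-17264290, plus strand) spans 18409 bp, overlaps another lncRNA gene, CR43874, on its own strand, and ends 126 bp before CG13723. Both of its neighbours of coding type, CG6497 on the opposite strand and CG13723, had a mean count of 0, and CR43874 had a mean count of 1.33. CR43870 had 193 and 204 normalized counts in the mutant libraries, against 121 and 136 in the control libraries. The genotypes did not overlap, the replicates were close, and the log2 fold change was 0.63 (SE 0.28, adjusted p 0.935).

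The annotation names 4 of the genes as antisense RNAs. CR43465 (2L:5969859-5971025, minus strand) lies wholly opposite an exon of Ucp4B, a mitochondrial carrier gene that had a mean count of 0. CR43465 had 147 and 174 normalized counts in the mutant libraries, against 134 and 82.6 in the control libraries, with a log2 fold change of 0.60 (SE 0.37, adjusted p 0.975) that was 0.25 without control b and 0.94 without control a. CR46135 (3R:5613280-5616308, minus strand) is opposite 2351 bp of exon of Atu, which encodes a subunit of the Paf1 complex and had a mean count of 3136. CR46135 had 89.5 and 89.1 in the mutant libraries, against 137 and 99.6 in the control libraries, a log2 fold change of -0.39 (SE 0.36, adjusted p 0.975) that was -0.16 without control a and -0.61 without control b. Both mutant libraries of CR46135 were below both controls, and its upstream neighbour on the same strand, Spec2, 336 bp away, had 308 and 432 in the mutant libraries, against 798 and 521 in the control libraries. Rga, which lies nearer, 168 bp downstream on the same strand, had 865 and 1107 in the mutant libraries, against 1033 and 962 in the control libraries, so its genotypes overlapped. CR43957 (4:56497-63124, plus strand) shares 53 bp with an exon of ci, the transcription factor of Hedgehog signalling, on the opposite strand. It had 184 and 119 in the mutant libraries, against 156 and 192 in the control libraries. CR43916 (3L:3940519-3941301, plus strand), opposite CG10863, had 345 and 189 in the mutant libraries, against 107 and 290.4 in the control libraries. Neither of the last 2 separated the genotypes, with adjusted p of 0.975 for both.

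Of the 11 annotated genes outside these groups, CR44330, CR43132 and CR40469 were among those whose genotypes did not overlap. CR44330 (3R:8089757-8090285, plus strand) had 726 and 701 normalized counts in the mutant libraries, against 497 and 414 in the control libraries, which is 1.57 times the control mean. The genotypes did not overlap, and the log2 fold change was 0.65 (SE 0.20, adjusted p 0.689). It begins 231 bp after CG7910 on the same strand, and CG7910 had 15.9 and 2.67 normalized counts in the mutant libraries, against 0 and 6.07 in the control libraries, so reads of CR44330 were far more numerous than those of the gene before it. CR43132 (X:15689490-15691146, plus strand) had 195 and 127 in the mutant libraries, against 307 and 349.9 in the control libraries, which is 0.489 times the control mean. Its log2 fold change was -1.06 (SE 0.31, adjusted p 0.642), and CR45523, which lies 526 bp after it, had 38.1 and 28.5 in the mutant libraries, against 22.4 and 62.0 in the control libraries. CR40469 (X:122493-122706, plus strand), a single-exon gene of 214 bp, had 237 and 527 in the mutant libraries, against 979.6 and 589 in the control libraries. All control libraries were above all mutant libraries for it, but mutant b was close to control b, and the log2 fold change was -1.10 (SE 0.45, adjusted p 0.879), or -0.53 without mutant a and -1.67 without mutant b. With the marker covariate the adjusted p was 0.00466 for CR44330, 0.00147 for CR43132 and 0.000611 for CR40469.

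CR44603 (2L:1618637-1626021, minus strand) had 136 and 112 normalized counts in the mutant libraries, against 76.2 and 82.6 in the control libraries, with a log2 fold change of 0.64 (SE 0.35, adjusted p 0.974). CR44953 (3R:29755190-29759040, minus strand) had 114 and 171 in the mutant libraries, against 178 and 191 in the control libraries, with a log2 fold change of -0.40 (SE 0.33, adjusted p 0.975) that was -0.11 without mutant a and -0.68 without mutant b. The genotypes did not overlap for either gene. CR46119 (3R:31570983-31571281, minus strand) had 202 and 135 in the mutant libraries, against 165 and 175 in the control libraries. CR46216 (3L:19243755-19251653, plus strand) had 167 and 200.5 in the mutant libraries, against 298 and 130.0 in the control libraries, and was, like CR40469, lower in mutant a and control b than in the other library of their genotype. CR44603 and CR46135 were the 2 genes just inside the threshold on the mean count, at 102 and 104, followed by CR33963 at 118. Just outside it were CR43604 at 99.5, CR44809 at 97.6 and CR43144 at 88.3.

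**Figure D3:**
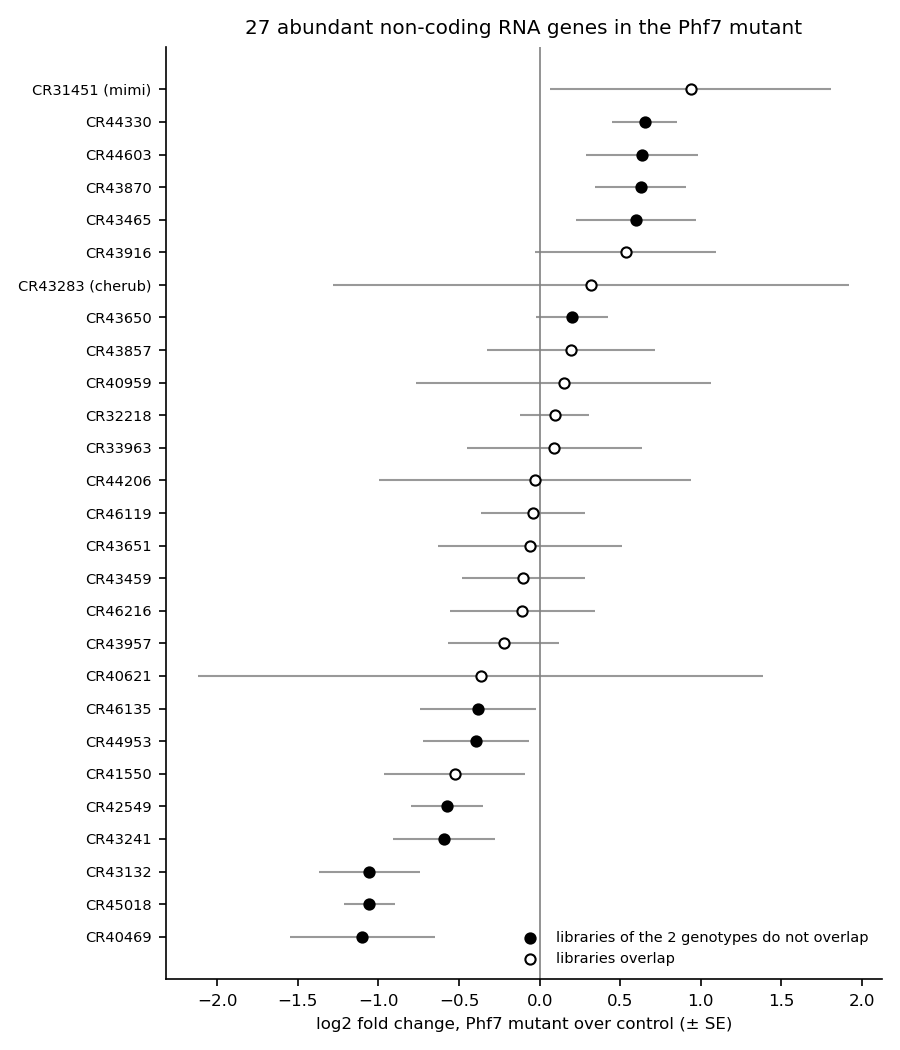
Log2 fold change of Phf7 mutant over control (x axis) with its standard error from limma (bars) for 27 genes, CR45018 from the fit that added it. Filled points are genes whose mutant and control libraries do not overlap, and the bars are widest for CR40621 (SE 1.75) and cherub (SE 1.60).

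The largest differences within a genotype belonged to CR40621, cherub, CR44206, CR40959 and mimi. Cherub (CR43283, 3R:11247631-11256123, minus strand) is an lncRNA known from neural stem cells, where it is sorted unequally at division and accumulates in brain tumours. It had 234 and 23.2 normalized counts in mutant a and mutant b, against 14.2 and 238 in control a and control b. The means of the genotypes, 128 and 126, were thus nearly equal while libraries of a genotype differed by 10.1-fold in mutants and 16.7-fold in controls. CR40621, which the annotation does not hold, had 292 and 22.3 in mutant a and mutant b, against 22.4 and 485 in control a and control b. CR40959, also not in the annotation, had 938 and 261 in the mutant libraries, against 198 and 1005 in the control libraries. Like CR44206, both were high in mutant a and control b and low in the other library of each genotype. CR41550, the remaining unannotated gene with reads, had 193 and 102 in the mutant libraries, against 161 and 255 in the control libraries, a smaller spread in the same direction.

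Mimi (CR31451, 3R:23983503-23985065, plus strand) had the highest log2 fold change of the 26 genes, 0.94, with the wide error that its libraries give (SE 0.87, adjusted p 0.975). It had 462 and 111 normalized counts in mutant a and mutant b, against 62.0 and 225 in control a and control b. It begins 271 bp after CG31140 on the same strand, and CG31140 had 513 and 179 in the mutant libraries, against 101 and 284 in the control libraries. In both genes the order of the 4 libraries was the same, with mutant a highest, then control b, mutant b and control a. Whether reads near the end of CG31140 were counted for mimi was not tested.

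Of the 26 genes, 18 (69.2%) were higher in mutant a than in mutant b and at the same time higher in control b than control a, and 4 had the opposite order in both genotypes. Among all genes tested 35.9% and 36.7% had these orders, against 29.3% and 46.2% among those with a mean count of at least 100. Among the 196 other CR-numbered genes tested the shares were 42.9% and 19.4%. The markers of muscle, neurons and midgut had the first order in 30 of 31 cases, and the germ cell markers in 3 of 8. Between the ratio of the mutant libraries and the ratio of the control libraries Pearson's r was 0.94 across the 26 genes and 0.61 across all genes tested, as a description, since all genes share the same 4 libraries. The median absolute log2 ratio within a genotype was 0.62 for the 26 genes, against 0.68 for the 196 other CR-numbered genes, 0.45 for all genes tested and 0.34 for those with a mean count of at least 100. A ratio over 2-fold within either genotype was seen in 11 of the 26, and within both in 6 (CR40959, mimi, CR40621, CR44206, cherub and CR43857). The part that muscle, neuron and midgut tissue has in these differences was not tested. CR45018, CR44330, CR32218, CR43650 and CR43870 differed little within a genotype, with ratios of at most 1.20-fold.

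**Figure D4:**
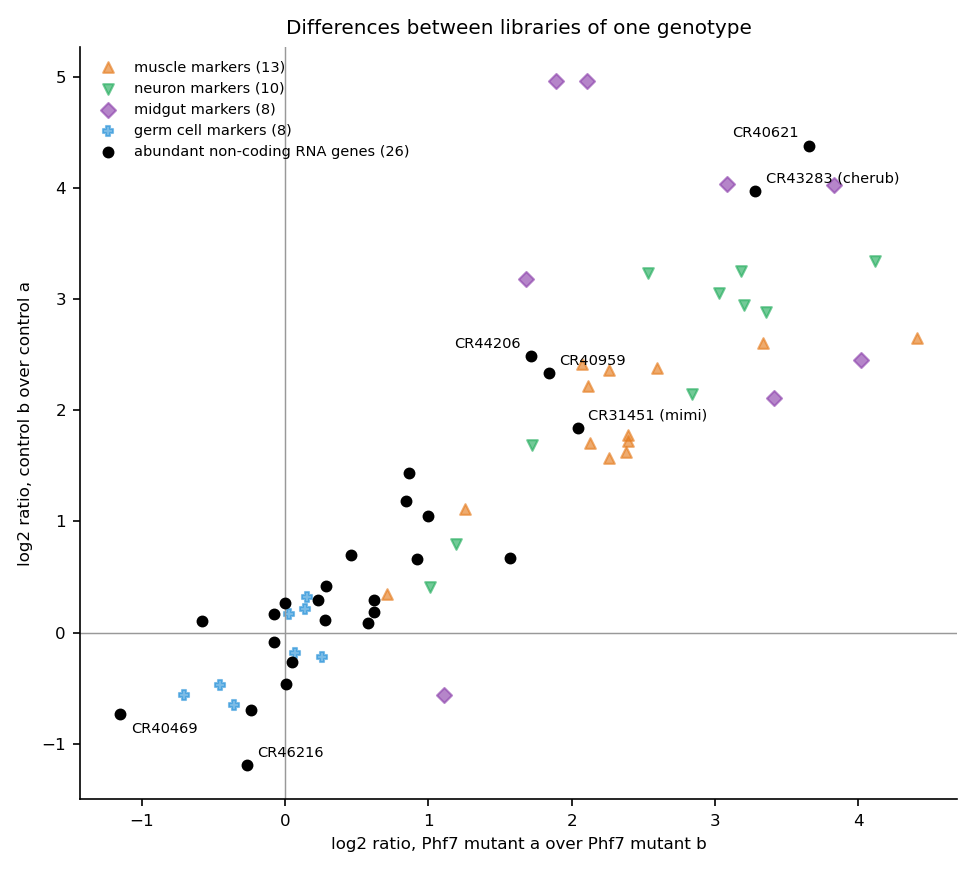
Log2 ratio of normalized counts plus 1 between the 2 mutant libraries (x axis, mutant a over mutant b) and between the 2 control libraries (y axis, control b over control a). Black points are the 26 genes with recovered reads and coloured symbols are marker genes; cherub and CR40621 lie among the midgut and neuron markers, and the germ cell markers lie near 0.

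A list of 25 non-coding RNAs known by name was set beside these genes, and it also holds cherub, described above. Of the 25, 17 were found in the table by that name. Of these, 4 (roX1, Hsromega, MRE16 and Uhg5) had a mean count over 1000 and were not tested. Of the 9 that could be tested 0 passed an adjusted p of 0.05 and 1, noe, had an unadjusted p under 0.05. noe, an RNA named for its expression in the central nervous system, had 137 and 90.0 normalized counts in the mutant libraries, against 52.8 and 14.6 in the control libraries (log2 fold change 1.95, SE 0.72, adjusted p 0.793). The host genes of small nucleolar RNAs Uhg1, Uhg2, Uhg3 and Uhg4 overlapped between the genotypes. Uhg8 had 105 and 84.6 in the mutant libraries, against 152 and 151 in the control libraries, with a log2 fold change of -0.68 (SE 0.33, adjusted p 0.955). Besides noe and Uhg8, the genotypes also did not overlap for roX2, an RNA of the dosage compensation complex, and flam, a source of piRNAs in the somatic ovary. roX2 had 118 and 111 in the mutant libraries, against 194 and 145 in the control libraries, and flam had 589.9 and 297, against 207 and 262. These are 4 of the 9, with 2 above and 2 below the control libraries. Among all genes tested, 15.4% lay above and 17.5% below.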

How the data were processed

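Gonads of stage 17 embryos, 2 samples per genotype, were profiled by 3′-end sequencing. Alignment by the authors used HISAT2 and dm6, counting used htseq-count, and DESeq2 compared the genotypes; program versions and the strand setting were not given in the sources used here. The deposited table gives for each gene 1 signal, the normalized count averaged over all libraries, beside the authors' comparison with its log2 fold change (control over mutant), error, test statistic and p-values. The deposited log2 values served only through their sign, at genes with a single read, to tell which libraries belong to which genotype; no other value of the comparison was used.

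Each printed mean adds 4 whole read numbers, multiplied by a constant for each library. All sets of whole reads that give the printed mean were searched. Each of the 11208 genes with a mean up to 1000 had exactly 1 set, whereas 0.533% of 1500 decoy values had any, all over 500, where 3.02% of 265 had 1 or more. Reads were divided by the size factors that these constants imply. limma 3.58.1 was run on log2(value + 1) for 7653 genes (mean count 10 or more), with 2 residual degrees of freedom and Benjamini-Hochberg adjustment. Its run on simulated counts, drawn independently for each gene and library, did not include a difference shared by mutant a and control b. Counting error adds to the spread, most for genes with few reads. Alternatives were other pseudocounts, filters and scalings, limma-voom, a marker covariate and leaving out each library. The members and lists were chosen with earlier results of these data known. The rule for named genes takes the 10 highest means, among genes whose genotypes do not overlap the 5 largest differences in each direction, the 5 largest ratios within a genotype and the 3 genes on either side of the threshold, which gives 24 of the 33; the other 9 and the listed RNAs were named after their values were seen. Positions come from Ensembl release 115, with 27 names matched by symbol and 2 by an older symbol in RefSeq.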

Additional observations from a re-analysis of the deposited data

How the results depend on the processing

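The number of genes passing an adjusted p of 0.05 was 2 with scaling by total recovered reads and 555 with the marker covariate (583 with the genes over 1000 added), against 0 as reported and 0 under the other pseudocounts, filters and scaling, limma-voom and each left-out library. The members passing were 5 with the covariate and 6 with the added genes, the sixth being CR45018. In that fit 1 residual degree of freedom remains and the markers themselves differ within each genotype; what else the covariate takes up was not tested. Without 1 library, members whose genotypes do not overlap numbered 16 to 21, against 11, as fewer values overlap less often, and the members' median log2 fold change lay between -0.38 and 0.36. The direction changed with the covariate for CR40959 (-0.34), CR43283 (-0.53), CR33963 (-0.14), CR43857 (-0.043) and CR46216 (0.06), and for CR44206 with median-of-ratios scaling (0.001) and limma-voom (0.068). Without 1 library the log2 fold change took either sign for 14 of the 27 genes with values per library: CR40959 (-1.02 to 1.32), CR32218 (-0.038 to 0.23), CR43651 (-0.84 to 0.72), CR43916 (-0.18 to 1.25), CR31451 (-0.086 to 1.96), CR40621 (-2.56 to 1.82), CR46216 (-0.70 to 0.49), CR46119 (-0.33 to 0.25), CR43957 (-0.53 to 0.088), CR43857 (-0.33 to 0.72), CR43459 (-0.45 to 0.25), CR44206 (-1.27 to 1.22), CR43283 (-1.67 to 2.31) and CR33963 (-0.50 to 0.68). It kept its sign but moved by over 1.5 times for 6: CR40469 (-1.67 to -0.53), CR41550 (-0.99 to -0.068), CR43241 (-0.81 to -0.39), CR44953 (-0.68 to -0.11), CR43465 (0.25 to 0.94) and CR46135 (-0.61 to -0.16). For the other 7 it stayed within 1.5 times. A threshold of 50 or 200 on the mean count would give 65 or 18 genes in place of 33, and members within 500 bp of a gene on the same strand numbered 4, against 7 within 1000 bp. No paired analysis was possible because the recovered libraries carry no replicate number. Counting error limits the genes near 100 reads, and the 6 members with a mean alone could not be tested.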
